A study of Mus musculus with 6 samples.

Results

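The matrix metalloproteases (MMPs), the ADAMTS proteases and the tissue inhibitors of metalloproteases (TIMPs) were examined in the heart transcriptome of mice given angiotensin II (Ang II) with or without the flavonoid tectochrysin (Tec). The members were all genes in the deposited table whose symbol begins with Mmp, Adamts or Timp followed by a digit and that have a protein-coding transcript. They numbered 38 of 30914 genes, of which 17 encode MMPs, 17 encode ADAMTS proteases and 4 encode TIMPs. Mmp21 and Adamts16 have no transcript of that type in the table and were not included. The hearts came from 3 mice of the Ang II group and 3 mice of the Ang II + Tec group, all of them male wild-type C57BL/6J mice aged 8 weeks at the start. Both groups were infused with Ang II at 1 μg/kg/min through osmotic pumps for 4 weeks, and the Ang II + Tec group also received Tec, at a dose of 5 mg/kg, during the final 2 weeks. Hearts without Ang II were not analysed here, so the values compare treated with untreated Ang II hearts only.

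MMPs are zinc-dependent enzymes that cleave collagens, laminins, fibronectin and other proteins of the extracellular matrix. They are made as inactive precursors and are switched on by removal of a propeptide. ADAMTS proteases are secreted relatives that carry thrombospondin repeats and include enzymes for proteoglycans such as versican and for the maturation of fibrillar procollagens. TIMPs bind the active site of these proteases and block them. In hypertensive hearts this system takes part in the turnover of the collagen network, and fibroblasts, macrophages, endothelial cells and cardiomyocytes each contribute some of its members.

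RNA was measured as FPKM, which divides the fragments of a gene by its length and by the size of the library and so allows levels of different genes to be compared. A gene was tested when 3 or more libraries reached 0.5 FPKM, which 13089 genes did, and the groups were compared with limma on log2(FPKM + 1). A gene was called at a Benjamini-Hochberg adjusted p-value under 0.05 together with an absolute log2 fold change of 1 or more. Fold changes on this scale understate the change of genes with low FPKM. Ang II replicate 3 stood apart from the other replicates of its group, since it lay below both of them in 71.9% of the tested genes. Atrial transcripts differed strongly between libraries of the same group. The atrial light chain Myl7 was at 419, 332 and 0 FPKM in Ang II replicates 1, 2 and 3 and at 0, 1040 and 1.58 FPKM after Tec. Ventricular cardiomyocyte markers were abundant in every library, with a summed level of 8 genes between 9156 and 11297 FPKM. Over all tested genes the log2 fold changes had a median of -0.17 in the deposited values and of 0.0087 after scaling by the median of ratios, so a member is set against that shift below. Mitochondrial transcripts took 41.3%, 40.1% and 48.9% of the summed FPKM in Ang II replicates 1, 2 and 3 and 51.3%, 49.6% and 52.5% after Tec, so the groups did not overlap and Ang II replicate 3 lay nearest to the treated hearts. With all libraries set to a common sum outside the mitochondrial genome, the median of all tested genes was -0.14 and that of the tested MMPs was -0.52, against -0.54 as deposited.

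None of the members was called. Of the 38 members, 23 could be tested, and limma called 0 of them, against 0.16% of all tested genes. Without the limit on the fold change, 0 of the 23 had an adjusted p-value under 0.05, against 0.183%. At an unadjusted p-value under 0.05, 5 of the 23 were lower with Tec and 0 were higher, where 16.5% of all tested genes were lower and 2.09% were higher at that level. The 5 were Mmp11, Mmp14, Adamts2, Adamts9 and Timp1. For 5 of the 23 the groups were fully separated, each with the Ang II + Tec libraries below the Ang II libraries, against 18.9% of all tested genes in that direction. These were Mmp11, Mmp14, Adamts3, Adamts5 and Adamts9. Adamts3 passed the filter of 0.5 FPKM through the 3 Ang II libraries alone, so its separation follows from the filter. The opposite separation was found for 0 of the 23, against 2.9%. The counts of 5 in 23 lay near the shares of all genes in the same direction. A log2 fold change of -1 or less was seen in 4 of the 23, Mmp14, Adamts2, Adamts8 and Timp1, against 1.47% of all tested genes. This count depended on single libraries, being 2 without Ang II replicate 2 (0.649% of all tested genes) or Ang II + Tec replicate 3 (1.34%), 6 when Ang II + Tec replicate 2 was omitted (2.23%) and 8 without Ang II replicate 3 (4.05%). It was 3 after scaling by the median of ratios (0.924%), where Mmp14 was not among them. The median log2 fold change was -0.54 over the 9 tested MMPs, -0.27 over the 10 tested ADAMTS proteases and -0.18 over the 4 TIMPs. After scaling by the median of ratios these medians were -0.38, -0.16 and 0.06. In bulk tissue, fewer cells of a type and less RNA per cell cannot be told apart.

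**Figure D1:**
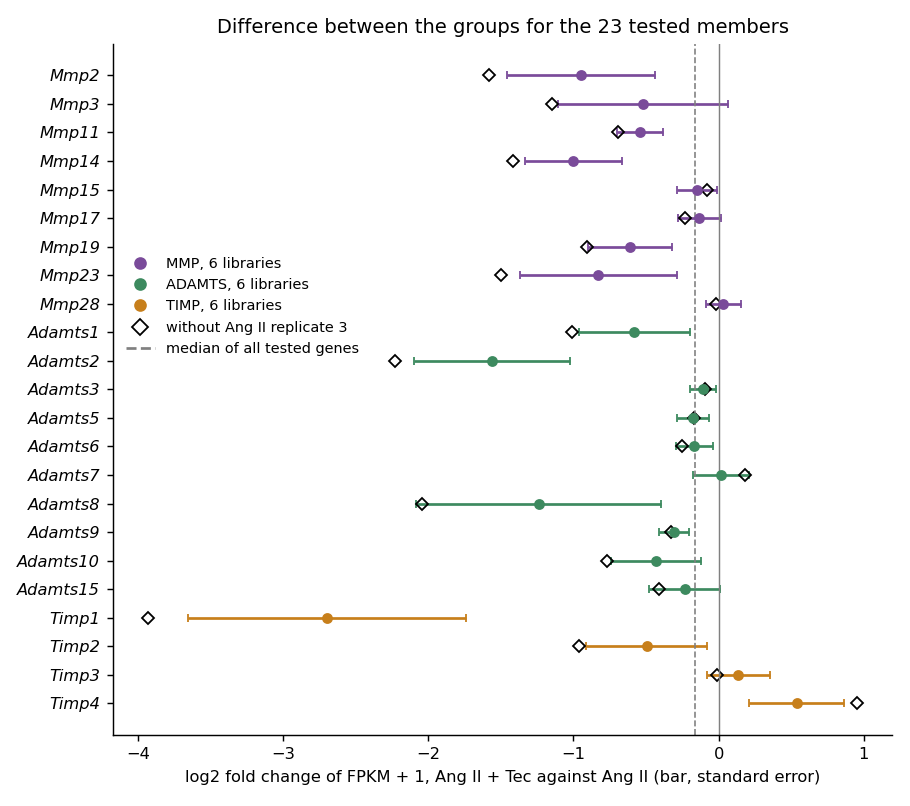
Log2 fold change of FPKM + 1 in Ang II + Tec against Ang II for the 23 tested members, as filled circles with standard errors from the limma fit of 6 libraries, coloured by family. Open diamonds give the same value without Ang II replicate 3 and the dashed line is the median of all tested genes (-0.17). Timp1 lies farthest to the left at -2.70 and Timp4 farthest to the right at 0.54.

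The 4 inhibitors did not move together. In the deposited values Timp1 and Timp2 had lower means with Tec, Timp4 had a higher mean, and Timp3 was nearly level. A synapsin gene on the opposite strand encloses 3 of them, Timp1 within Syn1 on chromosome X from 20870166 to 20874735, Timp3 within Syn3 on chromosome 10 from 86300372 to 86349506 and Timp4 within Syn2 on chromosome 6 from 115241892 to 115252205. Gene positions are those of the deposited table, which match GENCODE M21 on GRCm38 for 32 of the 38 members. The synapsin genes were at most 0.75 FPKM in any library. The 150 bases before the RefSeq start are shown for Timp1 and Timp4, inhibitors whose means moved in opposite directions, and for Timp3, nearly level in the deposited values. They are also shown for Mmp14 as a protease whose groups did not overlap, and for Mmp3 as a protease whose window holds both an AP-1 and a TATA match. Capitals mark matches on either strand to the GC box GGGCGG, the TATA box TATAAA and the AP-1 motif TGANTCA. The sequences are those of RefSeq starts on GRCm38.p6, and each is written 5′ to 3′ on the strand of the gene. The set of windows used here covered 25 of the 38 members.
Timp1 (chrX:20870016-20870165, + strand): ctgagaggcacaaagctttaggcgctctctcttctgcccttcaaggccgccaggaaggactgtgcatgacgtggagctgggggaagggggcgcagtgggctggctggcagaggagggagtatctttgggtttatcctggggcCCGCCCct
Timp3 (chr10:86300262-86300411, + strand): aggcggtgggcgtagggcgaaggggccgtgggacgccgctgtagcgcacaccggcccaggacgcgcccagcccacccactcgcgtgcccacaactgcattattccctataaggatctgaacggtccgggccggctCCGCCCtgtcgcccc
Timp4 (chr6:115252206-115252355, - strand): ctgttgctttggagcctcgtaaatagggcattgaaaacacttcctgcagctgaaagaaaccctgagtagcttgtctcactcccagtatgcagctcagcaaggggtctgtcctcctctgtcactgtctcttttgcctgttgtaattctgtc
Mmp14 (chr14:54431448-54431597, + strand): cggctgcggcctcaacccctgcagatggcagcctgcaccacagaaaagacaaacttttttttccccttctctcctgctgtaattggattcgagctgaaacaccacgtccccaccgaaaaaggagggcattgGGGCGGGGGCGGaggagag
Mmp3 (chr9:7445672-7445821, + strand): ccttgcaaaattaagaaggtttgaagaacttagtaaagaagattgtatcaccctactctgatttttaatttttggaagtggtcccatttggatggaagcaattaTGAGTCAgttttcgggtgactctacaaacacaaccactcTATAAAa

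In windows of 250 bases before the start, a GC box was found in 15 of the 25 members with a sequence, among them Timp1, Timp2, Timp3 and Mmp14, and in 32.7% of all 32851 windows. The AP-1 motif was found in Mmp3, Mmp12 and Mmp13, which follow each other among the members on chromosome 9, and in 6.75% of all windows. The TATA box was found in Mmp3, Mmp13 and Adamts1 and in 12.4% of all windows. Timp4 held none of the 3 motifs in its window. In Mmp14 2 GC boxes adjoin, so the capitals run together. A match describes the letters only and is not evidence that a factor binds there.

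Timp1, an inhibitor that is induced in activated fibroblasts and other stimulated cells, had the largest difference between the group means among the members. Its FPKM was 34.9, 56.2 and 2.49 in Ang II replicates 1, 2 and 3. After Tec it was 1.10, 3.35 and 1.88. The value of Ang II replicate 3 therefore fell among those of the treated hearts, and the groups overlapped. The means were 31.2 ± 27.1 FPKM (SD, n = 3) and 2.11 ± 1.14 FPKM (SD, n = 3), and the log2 fold change was -2.70 (standard error 0.96, limma adjusted p-value 0.234). After scaling by the median of ratios it was -2.50. When Ang II replicate 3 was left out, Timp1 was at -3.93 and was called (limma adjusted p-value 0.000973).

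Timp2, which also takes part in the activation of pro-MMP2 at the cell surface together with MMP14, was at 53.0, 68.8 and 22.4 FPKM under Ang II alone and at 24.2, 44.5 and 26.5 FPKM after Tec. Its lowest value was that of Ang II replicate 3, and its log2 fold change was -0.50 (standard error 0.41, limma adjusted p-value 0.489), and it was -0.96 or -0.17 when Ang II replicate 3 or 2 was left out. Timp3, which is bound to the matrix and also blocks several ADAMTS proteases, was at 41.3, 49.6 and 33.0 FPKM and at 36.2, 59.2 and 42.0 FPKM in the same order. The difference of 0.14 on the log2 scale (standard error 0.22) did not exceed the spread between replicates, and it was -0.01 when Ang II replicate 3 was left out and -0.06 when the second Ang II + Tec library was. Against the shift of all genes it was high, at percentile 91.6 of the log2 fold changes. After scaling by the median of ratios it was 0.38 (standard error 0.14, limma adjusted p-value 0.306), where the median of all tested genes was 0.0087.

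Timp4 is the inhibitor known for its high level in the heart. It was at 4.43, 3.52 and 10.8 FPKM under Ang II alone and at 8.64, 8.51 and 8.62 FPKM after Tec. The treated hearts were close to each other, with a mean of 8.59 ± 0.07 FPKM (SD, n = 3), while Ang II replicate 3 had the highest value of all and replicates 1 and 2 the lowest. The log2 fold change was 0.54 (standard error 0.33, limma adjusted p-value 0.374) and 0.74 after scaling by the median of ratios. It stood at percentile 98.8 of the log2 fold changes of all tested genes. Without Ang II replicate 3 it was 0.95 with a limma adjusted p-value of 0.00383, just under the limit on the fold change, and without Ang II replicate 2 it was 0.26. An adjusted p-value under 0.05 with a higher level was found for 2.61% of all tested genes in that fit.

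The order of the inhibitors changed accordingly. Over all 6 libraries Timp3 and Timp2 were the most abundant members of the whole family, with means of 43.5 and 39.9 FPKM that did not differ beyond their spread. Timp1 exceeded Timp4 by ratios of 7.87 and 16.0 in Ang II replicates 1 and 2. In the other 4 libraries Timp4 was the higher of the pair, with a ratio of Timp1 to Timp4 of 0.231 in Ang II replicate 3 and of 0.127, 0.394 and 0.218 after Tec. As a share of the summed FPKM of the 4 inhibitors, Timp1 made up 26.1%, 31.6% and 3.63% under Ang II alone and 1.57% to 2.90% with Tec. The share of Timp3 was 30.9%, 27.8% and 48.0% under Ang II alone and 51.2% to 53.2% with Tec, so the groups did not overlap in it.

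**Figure D2:**
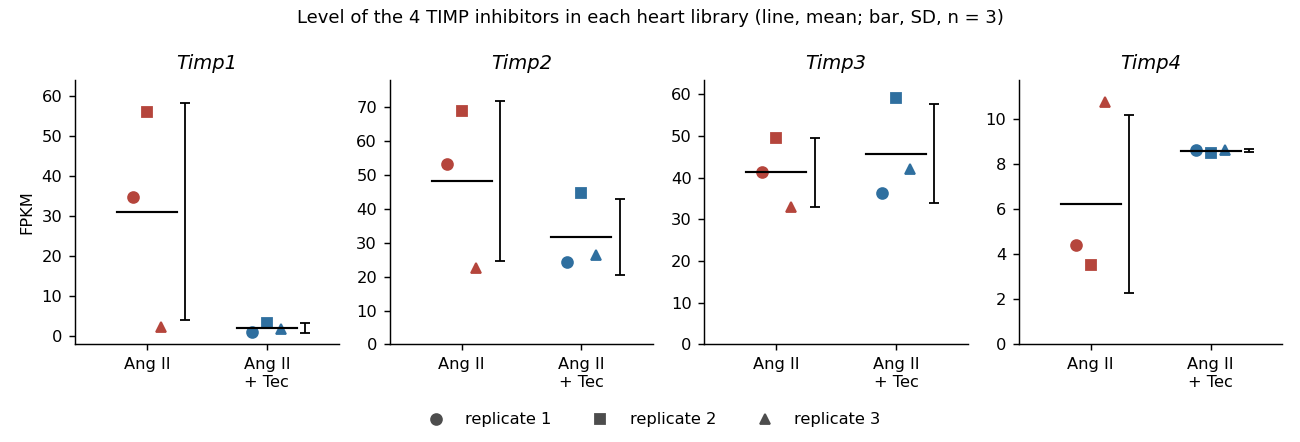
FPKM of Timp1, Timp2, Timp3 and Timp4 in each library, with 1 panel a gene, a symbol for each replicate, a line at the group mean and a bar for the SD (n = 3). Ang II replicate 3 sits with the Ang II + Tec libraries for Timp1 (2.49 FPKM) and has the highest level of Timp4 (10.8 FPKM).

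Among the proteases, the gelatinase Mmp2, which cleaves denatured collagen and basement membrane collagen, was the most abundant. It lies on chromosome 8 from 92827291 to 92853420 and was at 52.0, 50.0 and 12.9 FPKM under Ang II alone and at 14.3, 22.9 and 13.2 FPKM after Tec. The lowest of the 6 values was that of Ang II replicate 3. Its log2 fold change was -0.95 (standard error 0.51, limma adjusted p-value 0.329), and -1.58 without Ang II replicate 3, where it was called (limma adjusted p-value 0.00483). It was -0.62 without Ang II replicate 1. The other gelatinase, Mmp9, which is a product of neutrophils and macrophages, did not exceed 0.17 FPKM in any library and was not tested.

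Of the membrane-bound MMPs, Mmp14, whose protein activates pro-MMP2, lies on chromosome 14 from 54431612 to 54441265. It was at 3.27, 4.35 and 1.03 FPKM under Ang II alone and at 0.72, 1.02 and 0.66 FPKM with Tec. The groups did not overlap, although Ang II replicate 3 and Ang II + Tec replicate 2 were nearly equal, at 1.03 and 1.02 FPKM. The log2 fold change was -1.002 (standard error 0.33, limma adjusted p-value 0.229), it was -0.85 after scaling by the median of ratios, and it was -1.41 and called without Ang II replicate 3 (limma adjusted p-value 0.00234). Mmp15, another membrane-type enzyme, was nearly even over the 6 libraries, at 10.1, 8.32 and 10.7 FPKM and at 8.09, 9.82 and 8.12 FPKM. Its log2 fold change of -0.15 (standard error 0.14) became 0.07 after scaling by the median of ratios, so no direction can be given for it. The glycosylphosphatidylinositol-anchored Mmp17 was between 0.28 and 0.82 FPKM in all libraries.

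Mmp23 was at 9.04, 14.5 and 2.11 FPKM under Ang II alone and at 2.93, 4.70 and 2.84 FPKM after Tec. Its log2 fold change was -0.83 (standard error 0.54, limma adjusted p-value 0.394), and without Ang II replicate 3 it was -1.50 and the gene was called (limma adjusted p-value 0.00736). Without Ang II replicate 2 it was -0.34. The stromelysin Mmp3, which cleaves many matrix proteins and activates other MMPs, was at 3.94, 6.31 and 0.62 FPKM and at 0.63, 3.57 and 1.66 FPKM. Its values spread widely within the Ang II group, and the log2 fold change of -0.52 had a standard error of 0.59. It was -1.15 or -0.06 when Ang II replicate 3 or 2 was left out.

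Mmp11, a stromelysin by name that is usually made by stromal fibroblasts, had the lowest adjusted p-value of the members. It was at 2.88, 2.93 and 1.88 FPKM under Ang II alone and at 1.38, 1.69 and 1.21 FPKM with Tec, without overlap. The log2 fold change was -0.54 (standard error 0.16, limma adjusted p-value 0.218) and -0.38 after scaling by the median of ratios. Mmp11 overlaps Chchd10 on the opposite strand of chromosome 10, which was at 187 to 240 FPKM, and whether the counting used strand is not given in the sources used here. Reads of the 2 genes may therefore not be fully separated. The same limit holds for other tested proteases that overlap a gene on the opposite strand. Mmp19 overlaps Tmem198b (1.69 to 3.2 FPKM), Mmp28 overlaps 1700020L24Rik (0.4 to 1.13 FPKM) and Adamts7 overlaps Tbc1d2b (1.56 to 3.15 FPKM). Adamts2, Adamts8 and Adamts9 overlap opposite-strand genes that did not exceed 0.5 FPKM, as Mmp19 does with Gm47093. For Adamts9, at 0.53 to 1.13 FPKM itself, the partner 9530026P05Rik was at 0.25 to 0.5 FPKM. The other tested MMPs were Mmp19, at 0.80 to 2.82 FPKM in the Ang II group and 0.38 to 1.14 FPKM with Tec, and Mmp28, which was level at 0.89 to 1.30 FPKM in all libraries.

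Adamts2 removes the aminopropeptide of fibrillar procollagens. The gene lies on chromosome 11 from 50602084 to 50807573 and was at 9.84, 14.6 and 2.22 FPKM under Ang II alone and at 1.49, 2.55 and 1.40 FPKM after Tec. Ang II replicate 3 fell between the treated hearts. The log2 fold change was -1.56 (standard error 0.54, limma adjusted p-value 0.229), the lowest of the 19 tested proteases, and -1.37 after scaling by the median of ratios. It was called without Ang II replicate 3, at -2.23 (limma adjusted p-value 0.00201). Adamts3, a relative with the same substrate, was near the limit for testing, at 0.50, 0.50 and 0.54 FPKM and at 0.37, 0.47 and 0.37 FPKM. Its groups did not overlap, but only the Ang II libraries reached the 0.5 FPKM of the filter, which fixed that separation. The log2 fold change of Adamts3 was -0.11 (standard error 0.09) and -0.04 after scaling by the median of ratios. Adamts14, the remaining member of this subgroup, was between 0.13 and 0.34 FPKM.

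Proteoglycan-cleaving enzymes made up the largest subgroup of the ADAMTS family. Adamts1, which cleaves versican and is induced by inflammatory stimuli, was at 10.2, 15.8 and 4.65 FPKM under Ang II alone and at 5.24, 7.89 and 4.68 FPKM with Tec. Its log2 fold change was -0.58 (standard error 0.38, limma adjusted p-value 0.398), and -1.01 without Ang II replicate 3, where it was called (limma adjusted p-value 0.0216). It was -0.22 without Ang II replicate 2. Adamts5, which lies 53.1 kb from Adamts1 on chromosome 16, differed from that pattern. It was at 1.69, 2.19 and 1.97 FPKM and at 1.67, 1.55 and 1.58 FPKM, which do not overlap, and its log2 fold change of -0.18 (standard error 0.11) was close to the median of all genes. Adamts9, another versican-cleaving enzyme, was at 1.07, 1.13 and 0.99 FPKM under Ang II alone and at 0.53, 0.74 and 0.75 FPKM with Tec. Its log2 fold change was -0.30 (standard error 0.10, limma adjusted p-value 0.229), and Ang II replicate 3 lay with its own group. Adamts4 did not exceed 0.12 FPKM.

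Adamts8 and Adamts15, which are 20.1 kb apart on chromosome 9, were high in libraries of both groups. Adamts8 was at 2.27, 13.7 and 0.30 FPKM under Ang II alone and at 0.21, 2.27 and 0.20 FPKM after Tec. Ang II replicates 1 and 2 and Ang II + Tec replicate 2 were thus the 3 highest libraries, and the same 3 libraries held the atrial transcript Myl7 at 332 FPKM or more, whereas it did not exceed 1.58 FPKM in the others. The difference between the groups in Adamts8 was -1.24 on the log2 scale with a standard error of 0.84. It was -0.29 without Ang II replicate 2, the library at 13.7 FPKM, and -2.05 without Ang II replicate 3. Adamts15 was at 1.37, 1.09 and 0.54 FPKM and at 0.29, 1.31 and 0.57 FPKM. In 13 of the 23 tested members these 3 libraries were the highest, against 42.4% of all tested genes. The part of atrial tissue in the levels of Adamts8, Adamts15 and Mmp3 was not tested, and the comparison with Myl7 was chosen after the values were seen.

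**Figure D3:**
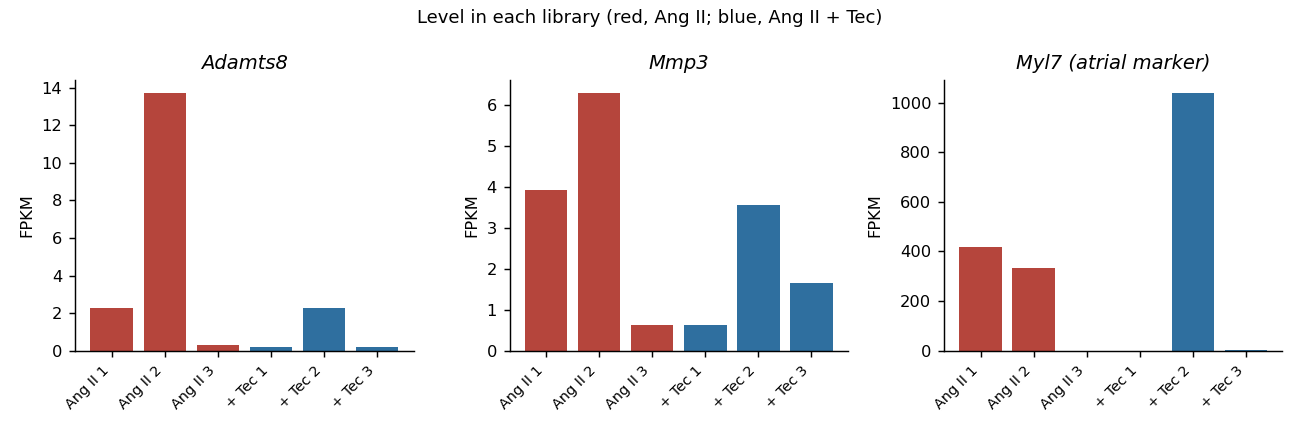
FPKM of Adamts8, Mmp3 and the atrial marker Myl7 in each library, as bars from 0, with Ang II in red and Ang II + Tec in blue. The bars are highest in Ang II replicates 1 and 2 and Ang II + Tec replicate 2 for each gene, and Ang II + Tec replicate 2 has the highest Myl7 (1040 FPKM) but not the highest Adamts8 (2.27 FPKM).

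The remaining ADAMTS genes that were tested showed small differences. Adamts10, which binds fibrillin microfibrils, was at 7.58, 8.71 and 3.51 FPKM under Ang II alone and at 3.76, 6.05 and 3.57 FPKM with Tec (log2 fold change -0.43, standard error 0.31). The value was -0.77 or -0.22 when Ang II replicate 3 or 2 was left out. Adamts6 was between 0.46 and 0.96 FPKM in all libraries. Adamts7, which cleaves cartilage oligomeric matrix protein, was at 1.91 to 3.45 FPKM with a log2 fold change of 0.02 (standard error 0.20). Of the 19 tested proteases, 17 had a log2 fold change below 0, where 80.0% of all tested genes did. After scaling by the median of ratios, 16 of the 19 were below 0, against 48.2% of all tested genes.

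**Figure D4:**
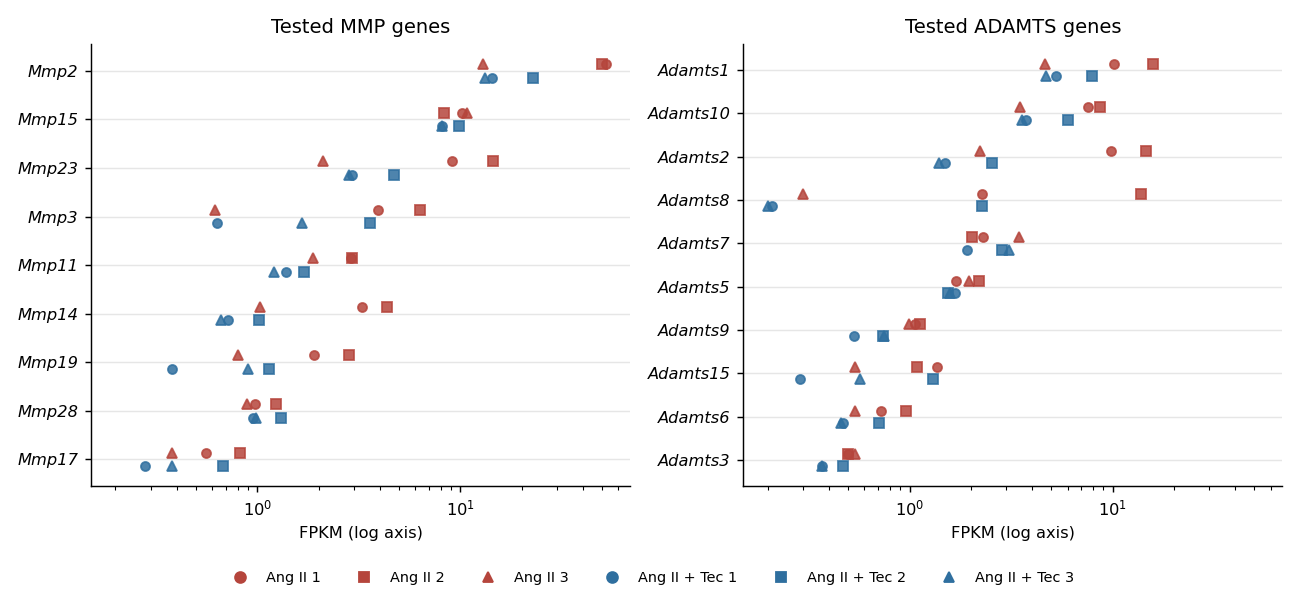
FPKM on a log axis of the 9 tested MMPs and the 10 tested ADAMTS proteases, ordered by their mean, with red symbols for Ang II and blue symbols for Ang II + Tec. For Mmp2, Mmp14, Mmp23, Adamts1, Adamts2 and Adamts10 the points of Ang II replicates 1 and 2 lie to the right of all others, while those of Ang II replicate 3 lie among or beside the blue ones.

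The other 15 members were too low to be tested. All 15 stayed below 0.5 FPKM in every library, with a highest value of 0.42 FPKM for Adamts12 in Ang II replicate 2, and 7 of them were listed at 0 in 1 or more libraries. They included the collagenases Mmp8 and Mmp13, the gelatinase Mmp9, the macrophage elastase Mmp12, the brain-enriched Mmp24, the leukocyte enzyme Mmp25 and Adamts13, which cleaves von Willebrand factor and is made mainly in the liver. Mmp8, Mmp12, Mmp13, Mmp27 and Mmp3 lie in the same stretch of chromosome 9, from 7272514 to 7581415. Genes between them that are not members were not examined. Mmp3 was the only one of these 5 above the limit for testing. Of neutrophil markers, S100a9 did not exceed 1.80 FPKM and Ly6g was at 0 in all libraries. The level of the collagenases was thus low in both groups, and no difference can be read from it.

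Proteases and inhibitors were then compared within each library, where a scaling of the library cancels. The summed FPKM of the 34 proteases was 124, 154 and 51.0 in Ang II replicates 1, 2 and 3 and 46.5, 74.5 and 47.7 after Tec. The summed FPKM of the 4 TIMPs was 134, 178 and 68.7 under Ang II alone and 70.2, 116 and 79.0 after Tec. Inhibitor transcripts exceeded protease transcripts in every library. The log2 ratio of TIMPs to proteases was 0.11, 0.21 and 0.43 under Ang II alone and 0.60, 0.63 and 0.73 after Tec. The groups did not overlap, with a difference of 0.40 between the means. No test was made of this ratio, because the members were chosen with results known. Its direction did not rest on Ang II replicate 3, since the difference was 0.49 without that library and 0.33 to 0.49 over the 6 ways of leaving out 1 library.

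The ratio rested on the most abundant genes. Mmp2 made up 25.2% to 42.0% of the protease sum, and the difference was 0.32 without it. It was 0.39 for the MMPs alone, 0.42 for the ADAMTS proteases alone and 0.71 with Timp1 left out of the inhibitors. In each case the groups did not overlap. Timp3 made up 27.8% to 48.0% of the inhibitor sum under Ang II alone and 51.2% to 53.2% with Tec. No form left Timp3 out, so these alternatives do not show that the ratio would be higher with Tec without it. When each gene was given the same weight, as the mean of log2(FPKM + 1) over the TIMPs minus that over the 19 tested proteases, the difference was -0.13 and the groups overlapped. The higher ratio with Tec therefore held for sums that include Timp3. It did not hold for this mean over genes, in which Timp1 counts as much as Timp3. The added 1 FPKM understates changes of low genes, which many of the proteases are, and this form was not tried with another pseudocount. For single pairs, the ratio of Timp2 to Mmp14 was 16.2, 15.8 and 21.8 under Ang II alone and 33.6, 43.6 and 40.1 with Tec. Timp2 to Mmp2 was 1.02, 1.38 and 1.74 under Ang II alone and 1.69, 1.95 and 2.00 with Tec, so these groups overlapped. Timp1 to Mmp2 went the other way without overlap, at 0.671, 1.13 and 0.193 under Ang II alone and 0.0768, 0.147 and 0.142 with Tec.

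**Figure D5:**
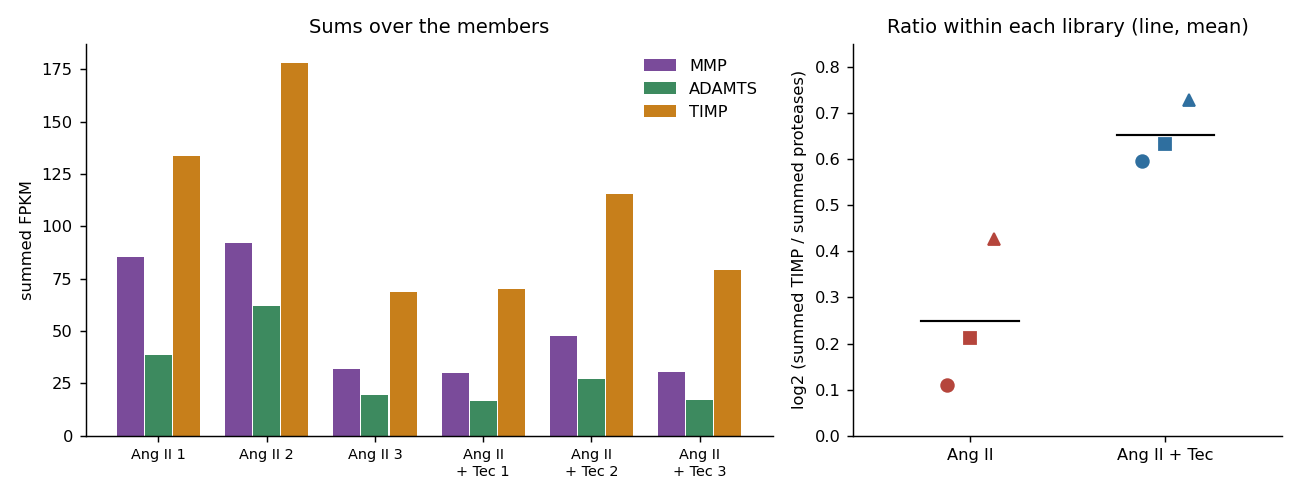
The left panel gives the summed FPKM of the MMPs, the ADAMTS proteases and the TIMPs in each library, as bars from 0. The right panel gives the log2 ratio of summed TIMPs to summed proteases in each library with the group mean as a line, and the 3 Ang II + Tec libraries (0.60 to 0.73) lie above the 3 Ang II libraries (0.11 to 0.43).

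Ang II replicate 3 decided which members were called. In 18 of the 23 tested members it lay below both other Ang II replicates, against 71.9% of all tested genes, and Ang II + Tec replicate 2 lay above both others of its group in 19 of the 23, against 69.3%. In 13 of the 23 the Ang II replicates 1 and 2 were above the other 4 libraries, against 49.7% of all tested genes. Without Ang II replicate 3, 6 of the 23 members were called, all lower with Tec, namely Mmp2, Mmp14, Mmp23, Adamts1, Adamts2 and Timp1. Among all tested genes 4.26% were called and 3.76% were called lower in that fit, and 26.2% had an adjusted p-value under 0.05 with a lower level. With any other single library left out, 0 of the 23 were called, against 0.0229% and 0.0535% of all tested genes without Ang II replicates 1 and 2, and 0.0306%, 0.0153% and 0.0229% without the Ang II + Tec libraries in order. The sum of the fibroblast markers was also lower in this library than in the other Ang II replicates. The 10 fibroblast markers summed to 680, 713 and 312 FPKM under Ang II alone and to 370, 719 and 450 FPKM with Tec, and 9 of the 10 had a lower mean with Tec. Gsn, which encodes gelsolin and is also made in other cells, was the exception, at 333, 289 and 226 FPKM and at 307, 606 and 375 FPKM. The sums without Gsn, an alternative chosen after seeing the data, were 347, 424 and 86.1 FPKM under Ang II alone and 62.4, 113 and 75.1 FPKM with Tec. Their part in the levels of the proteases and of Timp1 was not tested.

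Other parts of the proteolytic system were examined through lists of genes. Of 18 regulators of extracellular proteolysis 15 were tested, and limma called 0 of them, against 0.16% of all tested genes. The same share applies to the counts of called genes in the lists below. At an unadjusted p-value under 0.05, 2 of the 15 were lower, which is no more than the 16.5% of all tested genes, and the median log2 fold change over the 15 was -0.47. The 2 genes were Plau, which encodes the urokinase plasminogen activator, and Tfpi2, an inhibitor of serine proteases. Plau was at 2.07, 2.32 and 1.99 FPKM under Ang II alone and at 1.44, 1.14 and 1.07 FPKM with Tec (log2 fold change -0.50, standard error 0.12, limma adjusted p-value 0.188). Ang II replicate 3 did not depart from its group in this gene.

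Of 15 other matrix-related metalloproteases 8 were tested, with 0 called, 3 lower at an unadjusted p-value under 0.05, against 16.5% of all tested genes, and a median log2 fold change of -0.36. The 3 were Adam9, Adam15 and Adam10, membrane-bound sheddases, at log2 fold changes of -0.60, -0.39 and -0.46. Among the 7 ADAMTS-like genes, whose proteins resemble ADAMTS proteases but have no catalytic domain, 5 were tested. Of these, 0 had an unadjusted p-value under 0.05, against 16.5% lower and 2.09% higher among all tested genes. Adamtsl4 had a log2 fold change of 0.33 (standard error 0.16) and Adamtsl3 one of -0.61 (standard error 0.28). Adamtsl4 was at 8.39, 6.55 and 8.78 FPKM under Ang II alone and at 9.09, 12.2 and 9.35 FPKM with Tec, without overlap. It was the 1 gene of the 5 with Tec above, against 2.9% of all tested genes, and 0 had Tec below, against 18.9%.

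On the scale of log2(FPKM + 1), genes of matrix substrates had log2 fold changes further below 0 than the proteases had. This scale understates changes of genes with low FPKM, which many of the proteases are, so the medians below are not strictly comparable. Of 18 such genes 15 were tested and 0 were called, but all 15 had a log2 fold change below 0, against 80.0% of all tested genes. Of the 15, 9 were lower at an unadjusted p-value under 0.05, against 16.5%, and the median was -1.65, against -0.43 for the tested proteases and -0.17 for all tested genes. Only 2 of the 15 had groups that did not overlap, against 18.9% of all tested genes. The 18 genes summed to 927, 1280 and 236 FPKM under Ang II alone and to 203, 322 and 209 FPKM with Tec. Ang II replicate 3 thus fell among the treated hearts. The 3 with the lowest p-values were Col3a1 (log2 fold change -2.72, standard error 0.80) and the basement membrane genes Col4a1 (-1.01, standard error 0.33) and Nid1 (-0.76, standard error 0.25). Col3a1 was at 140, 207 and 18.85 FPKM under Ang II alone and at 9.71, 16.7 and 9.63 FPKM with Tec. Col4a1 was at 51.6, 73.8 and 27.4 FPKM under Ang II alone and at 25.6, 24.0 and 19.5 FPKM with Tec. This list was chosen with earlier results of these libraries known, so its direction is not independent evidence.

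Markers of cell types that could contribute these transcripts were summed in each library. The 8 macrophage markers summed to 332, 507 and 257 FPKM under Ang II alone and to 176, 175 and 192 FPKM with Tec, without overlap. All 8 were lower with Tec at an unadjusted p-value under 0.05, against 16.5% of all tested genes, and 6 of the 8 did not overlap, against 18.9%, although 0 were called. The 7 endothelial markers summed to 107 to 116 FPKM in the Ang II group and to 93.3 to 102 FPKM with Tec, also without overlap. Their median log2 fold change was -0.13, against -0.17 for all tested genes, and 0.09 after scaling by the median of ratios. Only 2 of the 7 did not overlap, so no endothelial decrease beyond the shift of all genes can be read from the sum. The 7 smooth muscle and pericyte markers summed to 228 to 462 FPKM and to 188 to 348 FPKM, which overlapped. Neutrophil markers, of which 7 are in the table, summed to no more than 3.14 FPKM, and only S100a9 was tested. The part of any of these cell types in the member levels was not tested.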

How the data were processed

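Hearts of 3 Ang II and 3 Ang II + Tec mice were sequenced. After read trimming (Cutadapt), the authors deposited FPKM for 30914 genes, with 2 decimals, in 6 libraries. The submitters' processing notes name HISAT2 2.0, StringTie 1.3.0, Bowtie 0.12.2 and the build mm8. Of 30832 genes also in GENCODE M21 (GRCm38), 90.5% have the coordinates given there, as do 32 of the 38 members, so coordinates are those of the deposited table. The table gives no read totals, and the depth was not recovered from the FPKM. Errors are the spread between mice.

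Values were not rescaled. limma 3.58.1 in R 4.3.3 (lmFit, eBayes with trend, no covariate) was run on log2(FPKM + 1) for all 13089 genes that passed the filter, with p-values adjusted over these genes. With 3 against 3, an exact permutation test of 1 gene cannot give a p-value below 0.1. In data simulated for this comparison with 200 of 12860 genes changed by a log2 fold change of 2, 197 were recovered with 6 false calls. The simulated noise was independent for each gene and library, and the changed genes were drawn from the more abundant ones. The recovery therefore does not give the power for genes with low FPKM or where a library departs from its group. Alternatives changed the pseudocount, the filter, the scaling, the variance trend and the replicate block, and left out each library. Other forms of the protease to inhibitor ratio were chosen after seeing the data. Members described with every value are the TIMPs, those with an unadjusted p-value under 0.05 or no overlap, and the 8 most abundant proteases. The members and all gene lists were chosen with earlier results of these data known.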

Additional observations from a re-analysis of the deposited data

How the results depend on the processing

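The count of called genes over the whole table was 21, and it was 3 when every gene above 0 in 1 library was tested, which raised the number of tested genes to 27760. Without 1 library it was between 2 and 557, the latter without Ang II replicate 3. For the members the count of 0 ranged from 0 to 6 in the same way and was 0 under the other pseudocount, filters, scalings and variance estimate. The difference in the log2 ratio of TIMPs to proteases, 0.40, was 0.71 without Timp1 and -0.13 as a mean of log2(FPKM + 1) values, both chosen after seeing the data. A form of this ratio without Timp3 was not made. The log2 fold change of Mmp15 was 0.072 after scaling by the median of ratios, and that of Timp3 was 0.376 after this scaling. Timp3 was at -0.0119 without Ang II replicate 3, and -0.0603 when the second Ang II + Tec library was left out, within a range of -0.0603 to 0.286 over all ways of leaving out 1 library. The medians of the 3 families moved by less than the spread between replicates under each alternative tried, but not all kept their sign or size. That of the TIMPs, -0.18, was 0.06 after scaling by the median of ratios, and 0.0457 or -0.49 when Ang II replicate 2 or 3 was left out. That of the MMPs, -0.54, was -0.13 with every gene tested, and -0.34 or -0.91 when Ang II replicate 2 or 3 was left out. That of the ADAMTS proteases, -0.27, lay between -0.52 with a pseudocount of 0.1 and -0.16 after scaling by the median of ratios. The cause of these changes was not tested. With the replicate number as a block, 22 genes and 0 members were called. The lowest limma adjusted p-value of a member was 0.118 (Mmp14) with the block and 0.218 (Mmp11) without it. Same-numbered libraries correlated at -0.04, 0.43 and 0.38 in their deviations from the group means. Ang II replicates 2 and 3 correlated best with the same number, and Ang II replicate 1 with another number (0.21). Deviations from means of 3 libraries cannot decide whether the numbers pair the mice. The precision is limited by 3 mice a group, and without read totals no counting error can be given.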
